A study of Mus musculus with 10 samples.

Results

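A set of 10 transcriptional regulators of naive pluripotency, Esrrb, Klf2, Klf4, Klf5, Tbx3, Tfcp2l1, Nr0b1, Zfp42, Prdm14 and Nr5a2, was followed through mouse embryonic stem cells (ESCs), through cells differentiated from them toward the neural fate, and through knockdown of the chromatin protein gene Cbx3 or the Mediator subunit gene Med26. The factors were taken by symbol, and each is represented by the deposited transcript row with the highest mean level over all libraries. They are 10 of the 24520 genes in the table, and all 10 were among the 11956 genes tested, which reached at least 1 RPKM (read density scaled to transcript length and library size) in at least 2 of the 10 libraries. Klf4, Nr5a2, Prdm14 and Tbx3 stayed under 1 RPKM in all 6 libraries of the neural stage and passed that filter through their ESC levels.

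RNA was sequenced from the mouse ESC line V6.5 in 5 groups of 2 libraries, which the labels call biological replicates. The stem cells grew with serum and leukemia inhibitory factor (LIF) on irradiated mouse embryonic fibroblasts, called feeders, and received a control siRNA against luciferase or a siRNA against Cbx3. The cells labelled NPCs (neural progenitor cells) came from the same line through 4 days as embryoid bodies and replating in ITSF medium, received the luciferase, Cbx3 or Med26 siRNA on day 5, and were harvested on day 8. All cells thus descend from 1 line, every library comes from transfected cells, and the series title places Cbx3 in the question of how lineage choice is kept during neural differentiation. The sources used here do not give when the ESCs were transfected or whether feeders were removed before extraction.

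Naive pluripotency is the state of the preimplantation epiblast, and mouse ESCs hold it in culture through LIF, which activates STAT3, and through Wnt signalling, which relieves repression by Tcf7l1. A set of transcription factors that bind each other's genes keeps the state, and they are switched off as cells pass to the formative and primed states of the epiblast, while the core factors Pou5f1 and Sox2 remain active for longer. Klf4 and Tfcp2l1 are direct targets of STAT3, Esrrb is a main target of the Wnt branch, Tbx3 and Klf2 sustain the same network, Prdm14 represses FGF receptor genes and de novo DNA methyltransferase genes, and Zfp42, also called Rex1, is the customary reporter of the naive state.

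Sequence upstream of 3 of the factors is shown because they mark the range of behaviour described here: Zfp42 had the highest level, Nr0b1 had the largest response to Med26 siRNA, and Tfcp2l1 is a STAT3 target that responded to the same siRNA. RefSeq promoter sequence of build GRCm38.p6, from 250 bases before to 50 bases after the start, was matched for 7 of the 10 factors. Each line reads 5′ to 3′ on the strand of the gene, and capitals mark motif matches.
Zfp42: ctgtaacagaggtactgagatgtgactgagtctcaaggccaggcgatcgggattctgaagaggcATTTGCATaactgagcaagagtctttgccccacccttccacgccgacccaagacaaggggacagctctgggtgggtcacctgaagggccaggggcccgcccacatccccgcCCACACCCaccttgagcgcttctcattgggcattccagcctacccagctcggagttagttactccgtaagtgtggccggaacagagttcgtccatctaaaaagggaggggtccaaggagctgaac
Tfcp2l1: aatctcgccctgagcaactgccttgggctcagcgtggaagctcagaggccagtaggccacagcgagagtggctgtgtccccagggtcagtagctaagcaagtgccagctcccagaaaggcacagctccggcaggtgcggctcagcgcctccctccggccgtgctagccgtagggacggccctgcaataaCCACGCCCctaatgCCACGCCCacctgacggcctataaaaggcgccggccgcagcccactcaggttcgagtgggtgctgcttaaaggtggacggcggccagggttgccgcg
Nr0b1: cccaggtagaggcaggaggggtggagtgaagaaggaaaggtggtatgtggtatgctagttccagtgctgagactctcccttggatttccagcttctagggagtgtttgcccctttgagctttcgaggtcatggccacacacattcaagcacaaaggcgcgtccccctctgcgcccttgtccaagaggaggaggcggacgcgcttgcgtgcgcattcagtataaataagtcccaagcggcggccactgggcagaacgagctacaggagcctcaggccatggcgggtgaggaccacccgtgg
The Zfp42 stretch lies at chr8:43306960-43307259 on the minus strand, the Tfcp2l1 stretch at chr1:118627695-118627994 on the plus strand and the Nr0b1 stretch at chrX:86191525-86191824 on the plus strand. The capitals in Zfp42 are a match to the octamer ATGCAAAT, read on the other strand, followed by a match to the KLF site GGGNGTGG, also on the other strand. The Tfcp2l1 stretch holds 2 KLF site matches on the other strand, and the Nr0b1 stretch holds no match to any motif searched. The search covered both strands for these 2 motifs, for the estrogen-related receptor element AAGGTCA and for the STAT site TTCCNGGAA, and no matches overlapped in the 3 stretches. Among 32851 promoters of the same length, 1.74% held the octamer, 17.6% the KLF site, 4.72% the estrogen-related receptor element and 1.15% the STAT site. Of the other promoters, 1 of the 2 listed for Nr5a2 held 1 KLF site match, and those of Klf4, Klf2 and Esrrb held no match.

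The siRNA targets and the stage markers bear on every comparison. Cbx3 siRNA left Cbx3 at 0.425 and 0.248 RPKM in NPCs, against 9.37 and 9.65 RPKM in their control, and at 1.96 RPKM or less in ESCs, against 14.0 and 56.4 RPKM. Med26 siRNA left Med26 at 3.04 and 3.07 RPKM, against 7.56 and 6.78 RPKM. The 12 neural progenitor markers summed to 148 and 99.0 RPKM in ESC control and 85.6 and 82.0 RPKM in NPC control. Of these sums, Sox2, which is also a core pluripotency factor, made up 131 and 72.1 RPKM in ESC control and 29.6 and 29.9 RPKM in NPC control. Of the 6 that passed the filter, 83.3% had a difference above 0, with Nes and Sox1 called higher and Sox2 called lower. Nes, an intermediate filament gene, was at 33.4 and 34.9 RPKM in NPC control against 6.35 and 15.4 RPKM in ESC control. Pax6 was 3.39 and 3.42 RPKM in NPC control against 0.704 and 2.07 RPKM in ESC control and did not pass (limma adjusted p = 0.0534), while the 6 other markers, Six3, Fabp7, Zbtb16, Lhx2, Pou3f2 and Hes5, stayed under 1 RPKM in every library. Pou5f1 was 484 and 497 RPKM in the same NPC control libraries, inside the range of ESC control (536 and 308 RPKM), so the cells labelled NPCs still carried the RNA of the core pluripotency factor. Estimated depth was 23.3 to 63.8 M reads (M for mega), with both ESC libraries numbered 2 at the low end (24.1 M and 23.3 M). Because the samples are bulk RNA, fewer cells expressing a factor and less of its RNA in each cell cannot be told apart.

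In control cells, the naive factors were far lower in NPCs than in ESCs. Every NPC library lay below every ESC library for 10 of the 10 factors, an arrangement found for 11.8% of all genes tested. Differences were tested on log2(RPKM + 1) with limma and Benjamini-Hochberg adjustment over all genes, on a scale that understates the change of low genes. The 10 libraries were fitted together for this comparison, and 7 of 10 factors fell at an adjusted p under 0.05, against 5.94% of all genes. These were Esrrb, Klf2, Tfcp2l1, Nr0b1 and Zfp42, beside Klf4 and Nr5a2. Klf4, Nr5a2, Prdm14 and Tbx3 passed the filter only through ESC levels, so their lower NPC level was largely fixed in advance by the filter. The median difference of the factors was -2.15 on the log2 scale, beside 0.03 for all genes.

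**Figure D1:**
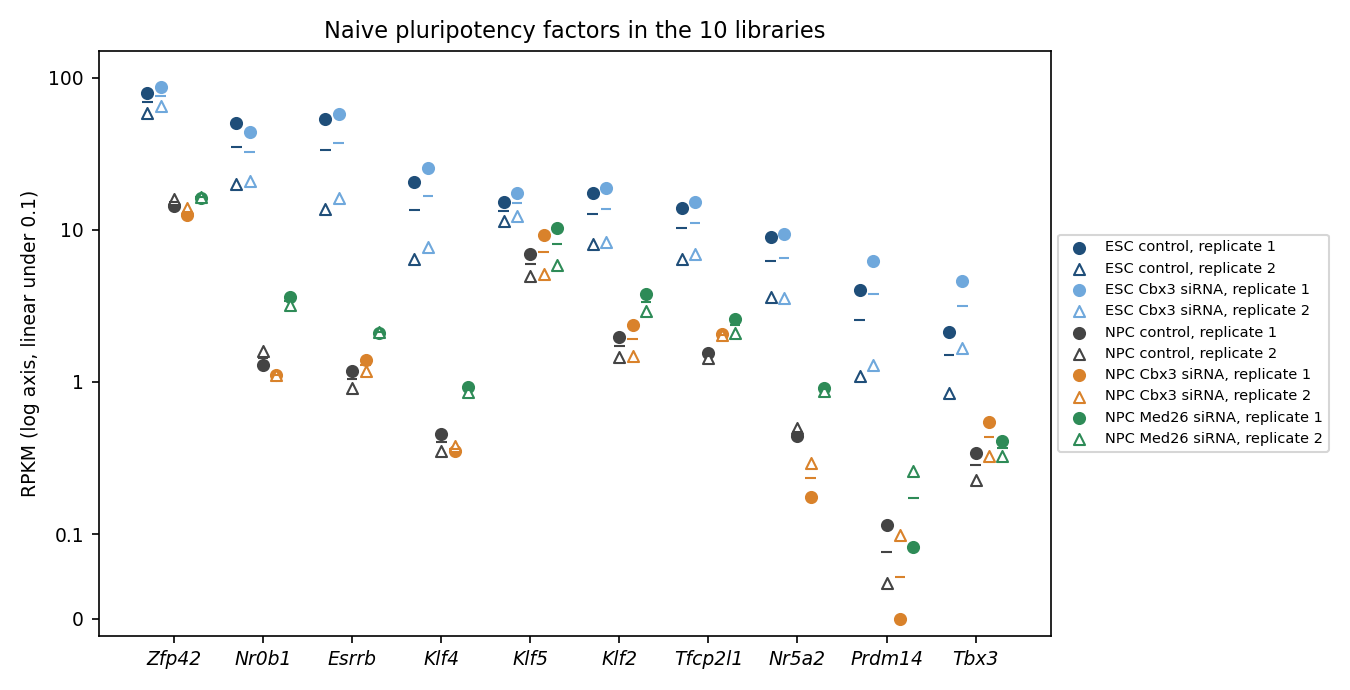
Level of each factor in every library, in RPKM on a log axis that turns linear under 0.1, with circles for libraries numbered 1, triangles for libraries numbered 2 and short lines for group means. All ESC points lie above all NPC points of the same gene, the ESC triangles lie below the ESC circles, and Zfp42 is the only factor above 12 RPKM in the NPC libraries.

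Among the targets of the LIF branch, Klf4, a zinc finger factor that can take part in reprogramming to pluripotency, had 20.7 and 6.45 RPKM in ESC control and 0.458 and 0.352 RPKM in NPC control. Tfcp2l1, a factor of the grainyhead-like family, had 13.9 and 6.47 RPKM in ESC control and 1.55 and 1.43 RPKM in NPC control. Both genes were lower in each NPC library, and the replicates of the NPC control lay much closer together than those of the ESC control. For Klf4 the lower NPC level was largely fixed in advance by the filter, as stated above. Klf4 fell by 3.18 (SE 0.58, limma adjusted p = 0.0131) and Tfcp2l1 fell by 2.09 (SE 0.38, limma adjusted p = 0.0134) on the log2 scale. As a share of the ESC control mean, NPC control retained 2.99% of Klf4 and 14.6% of Tfcp2l1.

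Of the 3 nuclear receptors, Esrrb and Nr0b1 gave the largest differences of the set. Esrrb, an orphan receptor that binds many of the same genes as Pou5f1 and Sox2, had 53.4 and 13.7 RPKM in ESC control and 1.18 and 0.913 RPKM in NPC control. Nr0b1, an X-linked receptor that lacks the usual DNA-binding domain and acts mostly as a corepressor, had 50.03 and 20.0 RPKM in ESC control and 1.29 and 1.60 RPKM in NPC control. Nr5a2, which binds regulatory sequence of Pou5f1, had 8.93 and 3.59 RPKM in ESC control and 0.445 and 0.495 RPKM in NPC control. In all 3 cases even the lower ESC library stood well above the higher NPC library, with NPC control at 7.63%, 7.23% and 13.1% of ESC control replicate 2 for Esrrb, Nr0b1 and Nr5a2. Esrrb fell by 3.79 (SE 0.67, limma adjusted p = 0.0121). Nr0b1 fell by 3.75 (SE 0.43, limma adjusted p = 0.00329). Nr5a2 fell by 2.20 (SE 0.43, limma adjusted p = 0.0162), but it passed the filter only through ESC levels, which largely fixed this direction in advance.

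The other Krüppel-like factors separated from each other. Klf2, which in mouse ESCs acts redundantly with Klf4 and Klf5, had 17.4 and 8.11 RPKM in ESC control and 1.98 and 1.45 RPKM in NPC control, and it fell by 2.26 (SE 0.42, limma adjusted p = 0.0140). Klf5, which also acts in the trophectoderm and in epithelia, had 15.3 and 11.4 RPKM in ESC control and 6.95 and 4.95 RPKM in NPC control. Klf5 was thus the factor with the highest retained share, 44.6% of the ESC control mean, and its difference of -1.05 (SE 0.33, 95% interval -1.83 to -0.27) did not pass (limma adjusted p = 0.0714). In ESC control the means of Klf4, Klf5 and Klf2, 13.6, 13.3 and 12.8 RPKM, lay within each other's replicate range. In NPC control they were 0.405, 5.95 and 1.71 RPKM, and the replicates of these 3 genes no longer overlapped.

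Zfp42, a zinc finger gene related to Yy1, was the most abundant factor in each of the 10 libraries. It had 79.6 and 58.6 RPKM in ESC control and 14.3 and 16.0 RPKM in NPC control, and together with Klf5 it had the ESC control replicates that were closest by ratio. It fell by 2.10 (SE 0.18, limma adjusted p = 0.00124), with 21.9% of the ESC control mean retained. A pseudogene copy of this gene is annotated under the name Zfp42-ps1, and the sources used here do not say how reads matching both were assigned.

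Prdm14 and Tbx3 were the lowest factors in ESCs. Prdm14 had 4.00 and 1.09 RPKM in ESC control and 0.115 and 0.042 RPKM in NPC control, the latter worth about 15.8 and 5.94 reads at the estimated depth. Tbx3, a T-box factor, had 2.14 and 0.852 RPKM in ESC control and 0.341 and 0.227 RPKM in NPC control. The groups did not overlap for either gene, but the ESC replicates were far apart for both. Both genes passed the filter only through ESC levels, so this separation was largely fixed in advance. The differences were -1.58 for Prdm14 (SE 0.55, limma adjusted p = 0.0898) and -0.91 for Tbx3 (SE 0.36, limma adjusted p = 0.126), and neither passed. The antisense genes Tbx3os1 and Tbx3os2 are annotated beside Tbx3, and the sources used here do not say whether counting used strand.

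The calls depended on single libraries, and so did the sizes of the differences. Over all fits that each left out 1 library, the difference of Esrrb ran from -4.74 to -2.85. Without NPC control replicate 1, or without replicate 2, only Nr0b1 and Zfp42 of the factors passed, and the number of genes called fell from 1918 to 185 and 242 in these fits, while the difference of Esrrb stayed at -3.88 and -3.70. With all NPC libraries but without ESC control replicate 1, 5 passed, with Klf2 (adjusted p = 0.0507) and Nr5a2 (adjusted p = 0.0537) lost.

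The surrounding pathway genes were counted in the same comparison, in which 1208 of the 11956 genes tested were called higher and 710 lower. Of 20 other pluripotency genes, 10 fell and 0 rose, with Gbx2, a homeobox target of LIF signalling, at -2.47 (limma adjusted p = 0.0122), Fbxo15 at -2.32 (0.00666) and the methylcytosine oxidase gene Tet1 at -1.95 (0.00557). Sox2 fell by 1.68 (limma adjusted p = 0.0140), from 131 and 72.1 RPKM to 29.6 and 29.9 RPKM. Nanog was 44.2 and 18.0 RPKM in ESC control and 24.3 and 23.5 RPKM in NPC control, inside the ESC range, with a difference of -0.24 (limma adjusted p = 0.770), and Pou5f1 differed by 0.27 (0.553).

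Of 12 genes of the LIF and STAT3 pathway, 5 fell and 1 rose. The feedback inhibitor Socs3 fell by 2.99 (limma adjusted p = 0.00563), the STAT3 target Bcl3 fell by 2.41 (0.00305) and the receptor gene Lifr fell by 1.86 (0.00907), while the kinase gene Jak2 rose by 0.53 (0.0383). Of 14 formative and primed epiblast genes, 5 rose and 0 fell, beside 1208 called higher among all 11956 genes tested. Among them were Fgf5 at 2.02 (limma adjusted p = 0.00219), Wnt8a at 1.52 (0.00563) and Epha1 at 1.49 (0.00615). Of 14 genes with a role in leaving the naive state, 3 fell and 0 rose, namely Jarid2 (-1.45), Rbpj (-1.38) and Zfp281 (-0.40). Of the paralogs of the factors, 1 of 11 tested Klf genes was lower (Klf10, -0.78, limma adjusted p = 0.0387) and 1 of 7 tested paralogs of the other factors was lower (Yy2, -0.59, 0.0345). Feeder markers were also lower, summing over 15 genes to 84.8 and 131 RPKM in ESC control and 27.9 and 22.8 RPKM in NPC control, and their part in the differences was not tested.

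Within the ESC groups, the libraries numbered 2 had less RNA of every naive factor than those numbered 1, with or without Cbx3 siRNA. In ESC control and in ESC Cbx3 siRNA, 10 of 10 factors were lower in replicate 2, as were 5295 of the 11956 genes tested. The median difference was -1.06 in control and -1.09 after Cbx3 siRNA on the log2 scale, beside -0.07 and -0.002 over all genes. A difference of -1 or less in both siRNA groups was found for 6 of 10 factors and for 0.903% of all genes. The summed level of the factors was 265 and 130 RPKM in the ESC control libraries and 286 and 144 RPKM in the ESC Cbx3 siRNA libraries. These are differences between single libraries and were not tested.

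**Figure D2:**
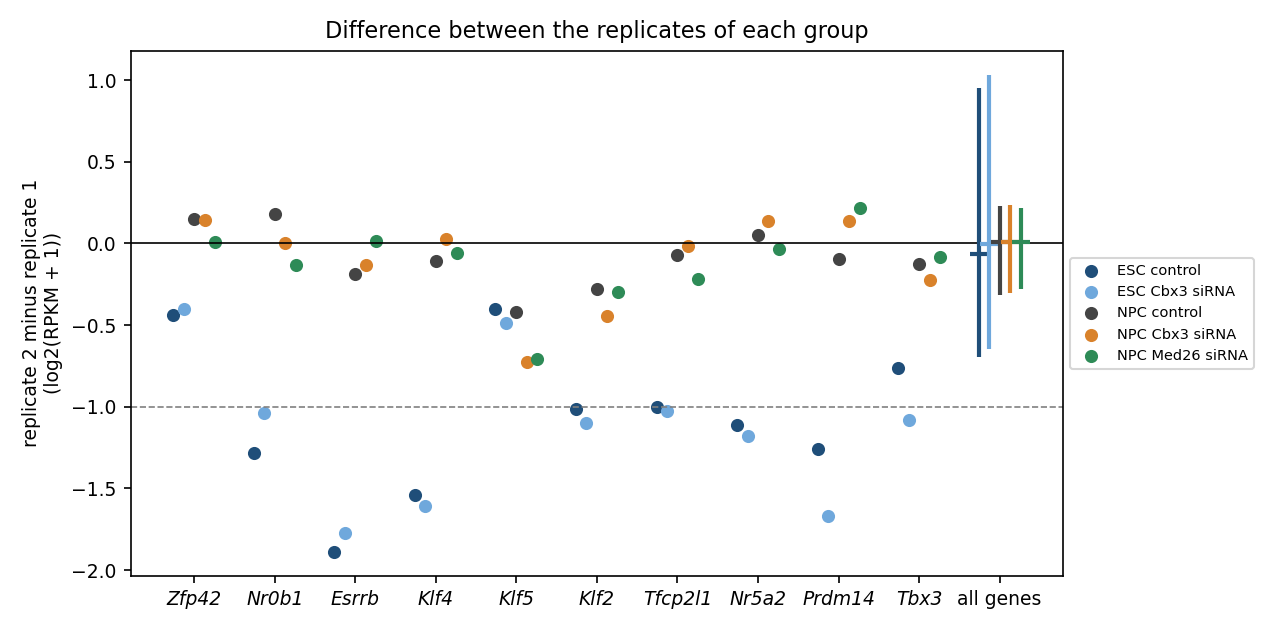
Difference between replicate 2 and replicate 1 of each group on the log2(RPKM + 1) scale for each factor, with vertical bars on the right for the 5th to 95th percentile and short lines for the median of all tested genes. The ESC points of all factors lie below 0, and those of Esrrb, Klf4, Nr0b1, Nr5a2, Prdm14 and Klf2 lie below -1 in both groups, while the NPC points lie nearer to 0 for most factors, with those of Klf5 and Klf2 all below 0.

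The factors were not equally far apart. Esrrb differed by -1.89 in control and -1.77 after Cbx3 siRNA, Klf4 by -1.54 and -1.61, and Prdm14 by -1.26 and -1.67. Nr0b1 (-1.28 and -1.03), Nr5a2 (-1.11 and -1.18) and Klf2 (-1.01 and -1.10) also passed -1 in both groups. Tfcp2l1 was at the border (-0.999 and -1.03), Tbx3 passed in 1 group (-0.76 and -1.08), and Klf5 (-0.40 and -0.48) and Zfp42 (-0.44 and -0.40) differed least. The reporter gene of the naive state thus separated the ESC replicates less than most of the regulators did.

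Other gene groups moved with the same replicate numbers. Formative and primed epiblast genes were higher in replicate 2, with medians of 0.47 and 0.63 over 14 genes, and 0 of the 14 were lower in both groups. Other pluripotency genes had medians of -0.48 and -0.57 over 20 genes, with Nanog at 44.2 and 18.0 RPKM in the control libraries, at 68.3 and 24.5 RPKM in the Cbx3 siRNA libraries, and Pou5f1 at 536 and 308 RPKM in control. Primitive endoderm markers summed over 10 genes to 19.7 and 6.41 RPKM in ESC control, with Cubn at 2.03 and 0.0588 RPKM. Feeder markers were higher in replicate 2, with medians of 0.62 and 0.44 over 10 tested genes, Col1a1 at 4.30 and 11.6 RPKM, and Lum at 0 in all 4 ESC libraries. Trophoblast markers summed over 11 genes to 26.6 and 107 RPKM in ESC control, with Krt8 at 4.59 and 40.8 RPKM, Krt18 at 10.1 and 54.3 RPKM and Elf5 at 0 in replicate 1. The higher sum came from keratin genes. Of 6 tested markers, the 3 higher by 1 or more in both groups were Krt7, Krt8 and Krt18. The 2 lower in both groups were Tfap2c (7.85 and 5.72 RPKM in control) and Eomes (1.28 and 1.05 RPKM). The part of these cell types and of the lower depth of the libraries numbered 2 in the difference was not tested.

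The NPC replicates lay closer together for most factors. The median difference of the factors between NPC replicates was -0.10 in control, -0.006 after Cbx3 siRNA and -0.07 after Med26 siRNA. Klf5 differed by -0.42, -0.73 and -0.71 and Klf2 by -0.28, -0.44 and -0.30 in the control, Cbx3 siRNA and Med26 siRNA groups, and Tbx3 and Tfcp2l1 were also lower in replicate 2 of all 3 groups, by at most 0.22.

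Knockdown of Cbx3 in NPCs was followed by no change of a naive factor that passed the test. In the fit of the 6 NPC libraries, 0 of 10 factors passed, against 13.1% of all genes, and the factors' median of 0.03 lay beside 0.007 for all genes. At an unadjusted p under 0.05, 2 factors passed by limma, Tfcp2l1 and Nr5a2, with opposite signs. Of all 11956 genes tested, 3619 had an unadjusted limma p under 0.05. Tfcp2l1 was 2.06 and 2.03 RPKM after Cbx3 siRNA against 1.55 and 1.43 RPKM in control (log2 difference 0.29, limma adjusted p = 0.0951). Nr5a2 was 0.175 and 0.293 RPKM against 0.445 and 0.495 RPKM (-0.25, limma adjusted p = 0.0743). For both genes the Cbx3 siRNA libraries lay outside the control range, as they also did for Nr0b1, Zfp42 and Esrrb. For Esrrb the nearest values were 1.19 RPKM after Cbx3 siRNA and 1.18 RPKM in control. The share of all genes with this arrangement was not computed, so no response is read from it. Nr5a2 passed with quantile normalization (-0.31, limma adjusted p = 0.0370).

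The remaining 8 factors differed by between -0.21 and 0.20 after Cbx3 siRNA in NPCs. Nr0b1 was 1.11 and 1.12 RPKM against 1.29 and 1.60 RPKM in control (-0.21, limma adjusted p = 0.192), and Zfp42 was 12.4 and 13.8 RPKM against 14.3 and 16.0 RPKM (-0.19, 0.170). Esrrb was 1.40 and 1.19 RPKM against 1.18 and 0.913 RPKM (0.17, limma adjusted p = 0.291), and Klf4 was 0.352 and 0.379 RPKM against 0.458 and 0.352 RPKM (-0.04, 0.752). Each of the 8 intervals covers 0, and the widest belongs to Klf5, at -0.56 to 0.96. Prdm14 is listed at 0 in 1 of these libraries and at about 11.9 reads in the other.

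Core factors fell after Cbx3 siRNA in the same NPC libraries, a comparison in which 933 of the 11956 genes tested were called higher and 637 lower. Sox2 fell by 0.55 (limma adjusted p = 0.00541), Pou5f1 fell by 0.32 (0.0247) and Nanog fell by 0.30 (0.0326), and these were the 3 called lower among 20 other pluripotency genes, with Mybl2 the 1 called higher (0.24, 0.0466). Of the LIF and STAT3 pathway, 3 of 12 rose and 0 fell, with Stat3 at 0.85 (limma adjusted p = 0.00403), Bcl3 at 0.66 (0.0402) and the shared receptor subunit gene Il6st at 0.33 (0.0460). Of the formative and primed genes, 4 of 14 fell, among them Dnmt3b (-0.76, limma adjusted p = 0.00162), Dnmt3a (-0.69, 0.00319) and Foxd3 (-0.52, 0.0155), and Wnt8a rose (0.62, 0.0455). Of 11 tested Klf paralogs, 3 rose, namely Klf6 (0.59), Klf10 (0.36) and Klf8 (0.36), and Klf15 fell by 0.53. Of the 14 exit genes, Etv4 alone passed, at -0.35 (limma adjusted p = 0.0240). The neural progenitor markers summed to 60.1 and 61.5 RPKM after Cbx3 siRNA against 85.6 and 82.0 RPKM in control, and the trophoblast markers to 488 and 525.5 RPKM against 200.3 and 212 RPKM. Most of the trophoblast sum was Krt8 (168 and 183 RPKM against 59.4 and 62.6 RPKM) and Krt18 (303 and 326 RPKM against 132 and 141 RPKM). The part of these 2 marker lists in the values of the naive factors was not tested.

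Knockdown of Med26 in NPCs was followed by higher levels of several naive factors. In the fit of the 6 NPC libraries, 5 of 10 factors rose and 0 fell, against 6.90% of all genes called higher. Both Med26 siRNA libraries lay above both control libraries for 7 of 10 factors, an arrangement found for 29.1% of all genes. The factors' median was 0.40 on the log2 scale, beside -0.001 for all genes, and all 10 differences were above 0. The comparison uses the same NPC control libraries as the Cbx3 comparison.

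**Figure D3:**
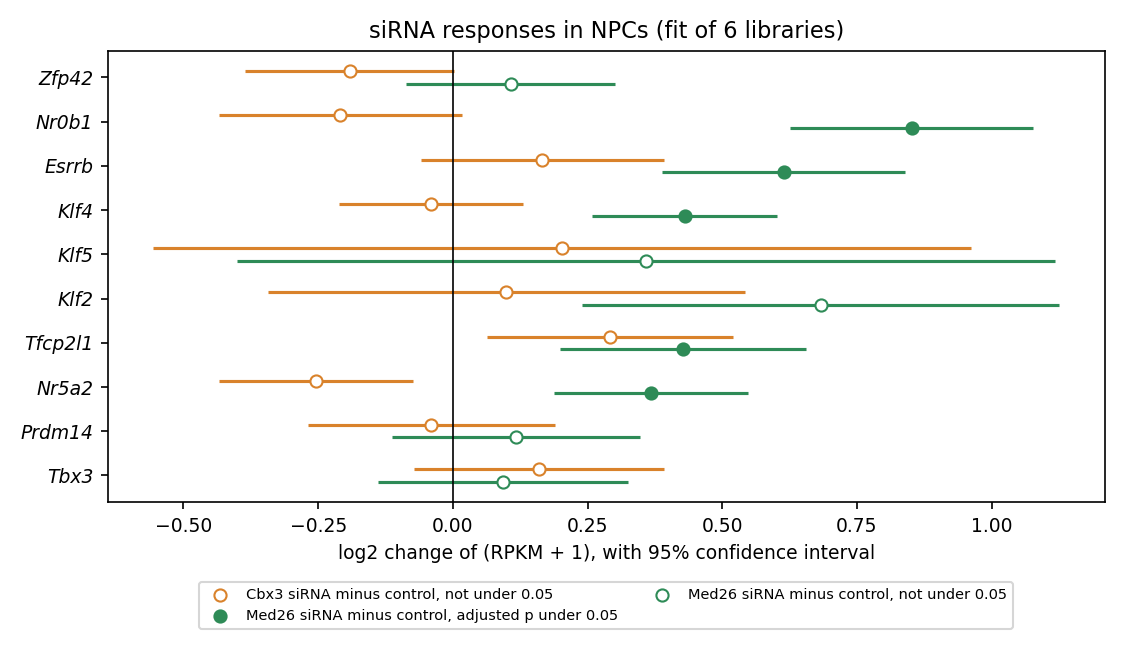
Log2 change of (RPKM + 1) of each factor after Cbx3 siRNA (orange) and Med26 siRNA (green) against the NPC control, from the fit of the 6 NPC libraries, with 95% confidence intervals as lines and filled points for an adjusted p under 0.05. Filled points are seen for Nr0b1, Esrrb, Klf4, Tfcp2l1 and Nr5a2 after Med26 siRNA and for no factor after Cbx3 siRNA.

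All 3 nuclear receptors rose. Nr0b1 was 3.61 and 3.21 RPKM after Med26 siRNA against 1.29 and 1.60 RPKM in control, and it rose by 0.85 (SE 0.09, limma adjusted p = 0.00543). Esrrb was 2.11 and 2.14 RPKM against 1.18 and 0.913 RPKM, and it rose by 0.61 (SE 0.09, limma adjusted p = 0.0133). Nr5a2 was 0.919 and 0.876 RPKM against 0.445 and 0.495 RPKM, and it rose by 0.37 (SE 0.07, limma adjusted p = 0.0273). The groups did not overlap for any of the 3, and as ratios of mean RPKM the increases were 2.36, 2.03 and 1.91 times.

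Klf4 and Tfcp2l1, the factors named above as STAT3 targets, rose as well. Of other targets of STAT3 or LIF, Bcl3 rose by 0.62 (limma adjusted p = 0.0473), while Socs3 differed by 0.02 (0.881) and Gbx2 by -0.46 (0.114). Stat3 itself rose by 0.65 (limma adjusted p = 0.00953), and its part in these changes was not tested. Klf4 was 0.929 and 0.855 RPKM after Med26 siRNA against 0.458 and 0.352 RPKM in control, and it rose by 0.43 (SE 0.07, limma adjusted p = 0.0165). Tfcp2l1 was 2.60 and 2.10 RPKM against 1.55 and 1.43 RPKM, and it rose by 0.43 (SE 0.09, limma adjusted p = 0.0351). Both stayed far under the ESC level, with Klf4 at 6.58% and Tfcp2l1 at 23.1% of the ESC control mean after Med26 siRNA, and Nr0b1 and Esrrb reached 9.74% and 6.34%.

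The other factors did not pass after Med26 siRNA. Klf2 was 3.81 and 2.91 RPKM against 1.98 and 1.45 RPKM, with no overlap and a difference of 0.68 (SE 0.18, 95% interval 0.24 to 1.13, limma adjusted p = 0.0579). Klf5 was 10.3 and 5.90 RPKM against 6.95 and 4.95 RPKM, overlapping, with a difference of 0.36 (limma adjusted p = 0.489). Zfp42 was 16.3 and 16.4 RPKM against 14.3 and 16.0 RPKM, a difference of 0.11 with a 95% interval of -0.09 to 0.30 (limma adjusted p = 0.413). Tbx3 (0.09, limma adjusted p = 0.562) and Prdm14 (0.12, 0.453) also did not pass, and Prdm14 rested on about 11.9 and 42.5 reads in the Med26 siRNA libraries.

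Most of these calls were close to the threshold. Nr0b1 passed in 5 of 6 fits that each left out 1 library and had an adjusted p of 0.0503 without Med26 siRNA replicate 1, Esrrb passed in 3, Klf4 and Nr5a2 in 2, and Tfcp2l1 in 0. Without NPC control replicate 1 the number of factors called was 2, without NPC control replicate 2 it was 1, without Med26 siRNA replicate 1 it was 0 and without Med26 siRNA replicate 2 it was 1. The number of all genes called fell from 1597 to 283, 241, 164 and 320 in these fits, while the difference stayed between 0.76 and 0.94 for Nr0b1 and between 0.34 and 0.39 for Nr5a2. In the fit of all 10 libraries 0 factors and 15 of all genes passed, with adjusted p from 0.533 to 0.903, while the differences themselves did not change.

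Pathway genes after Med26 siRNA moved in both directions, and of all 11956 genes tested 825 were called higher and 772 lower. Of 20 other pluripotency genes, 3 rose, namely Fgf4, the growth factor that drives exit from the naive state (0.45, limma adjusted p = 0.00806), Sox2 (0.33, 0.0249) and Mybl2 (0.28, 0.0278), and Nanog fell by 0.37 (0.0195). Pou5f1 was 467 and 495 RPKM after Med26 siRNA against 484 and 497 RPKM in control. Of the LIF and STAT3 pathway, 2 of 12 rose, Stat3 by 0.65 (limma adjusted p = 0.00953) and Bcl3 by 0.62 (0.0473). Of the exit genes, Jarid2, a partner of the Polycomb complex that methylates histone H3, rose by 0.67 (limma adjusted p = 0.00224) and Etv4 fell by 0.62 (0.00551). Of the formative and primed genes, Fgf5 rose by 0.52 (limma adjusted p = 0.0216), while Wnt8a fell by 1.16 (0.00843), Pim2 fell by 0.72 (0.00656) and Foxd3 fell by 0.37 (0.0398). Of 11 tested Klf paralogs 4 rose and 0 fell, Klf9 by 0.51, Klf7 by 0.45, Klf6 by 0.37 and Klf10 by 0.36. Of the paralogs of the other factors, 0 of 7 passed by limma.

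Markers of other cell types in the same libraries were as follows. The 12 neural progenitor markers summed to 97.4 and 99.2 RPKM after Med26 siRNA against 85.6 and 82.0 RPKM in control, with Six3 at 0 in 1 control library. Most of these sums was Sox2 (36.7 and 38.5 RPKM against 29.6 and 29.9 RPKM) and Nes (38.8 and 40.4 RPKM against 34.9 and 33.45 RPKM). Of the 6 markers tested, Sox2 was called higher (0.33, limma adjusted p = 0.0249) and Dll1 lower (-0.47, 0.0216). The 15 feeder markers summed to 32.9 and 26.0 RPKM against 27.9 and 22.8 RPKM. Fn1 made up most of these feeder sums (22.0 and 16.0 RPKM against 15.8 and 12.5 RPKM). Of the 10 feeder markers tested, 0 were called, and their median difference was -0.04 on the log2 scale. The 11 trophoblast markers summed to 336 and 354 RPKM against 200.3 and 212 RPKM, with Krt8, Krt18 and Krt7 called higher and Elf5 at 0 in both control libraries. Most of that sum after Med26 siRNA was Krt8 (114 and 121 RPKM) and Krt18 (210 and 221 RPKM). The part of these marker lists in the changes of the naive factors was not tested.

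The siRNAs against Cbx3 and Med26 were also compared directly in NPCs, and 5 of 10 factors were lower after Cbx3 siRNA than after Med26 siRNA, against 7.87% of all genes. Nr0b1 was 1.11 and 1.12 RPKM after Cbx3 siRNA and 3.61 and 3.21 RPKM after Med26 siRNA (-1.06, SE 0.09, limma adjusted p = 0.00237). Nr5a2 was 0.175 and 0.293 RPKM against 0.919 and 0.876 RPKM (-0.62, limma adjusted p = 0.00495), and Klf4 was 0.352 and 0.379 RPKM against 0.929 and 0.855 RPKM (-0.47, limma adjusted p = 0.00914). The groups did not overlap for any of the 3. Esrrb (-0.45, limma adjusted p = 0.0239) and Zfp42 (-0.30, limma adjusted p = 0.0492) passed as well. Tfcp2l1, which had a higher mean than control after either siRNA, did not pass (-0.13, 95% interval -0.36 to 0.09, limma adjusted p = 0.364). Nr0b1 and Nr5a2 passed in all 6 fits that left out 1 library, Klf4 failed without Med26 siRNA replicate 1 (limma adjusted p = 0.0638), Esrrb passed in 2 of the 6 and Zfp42 in 0.

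In ESCs, Cbx3 siRNA gave no called change. By limma on the 10 libraries, 0 of 10 factors and 0% of all genes passed, with adjusted p = 0.9998 for each factor, and 645 genes had an unadjusted p under 0.05, none of them a naive factor. The ESC replicates lay far apart, as described above, and the 95% interval of Esrrb ran from -1.40 to 1.74. The difference was above 0 for 9 of 10 factors and for 43.2% of all genes.

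**Figure D4:**
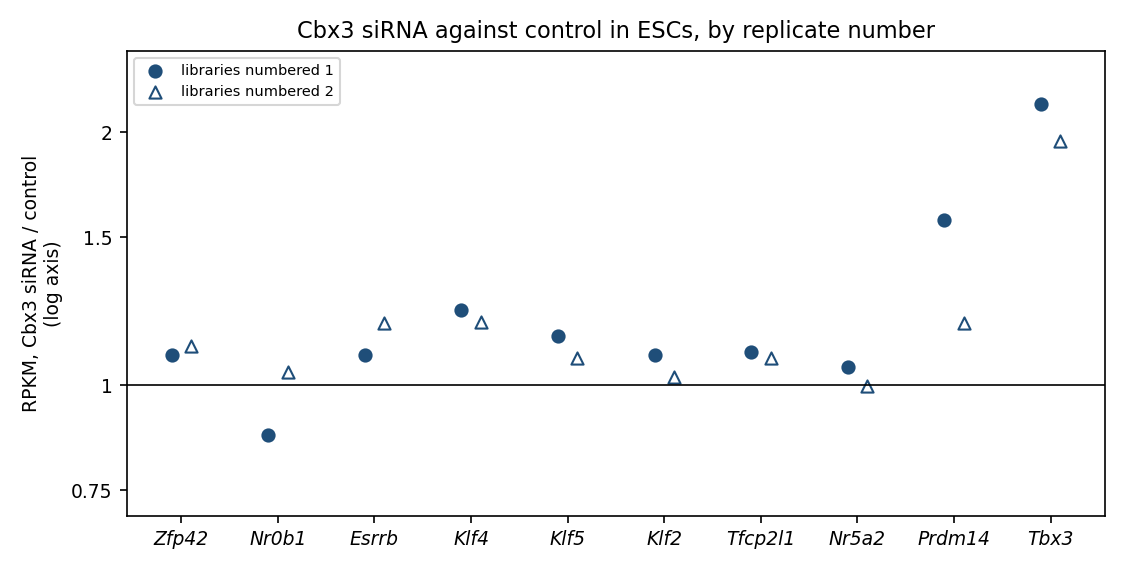
Ratio of RPKM after Cbx3 siRNA to RPKM in control among ESC libraries of the same number, on a log axis, for each factor. The ratios of Tbx3 lie near 2 for both numbers, and most other ratios lie between 1 and 1.25.

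Set side by side by replicate number, 9 of 10 factors were higher after Cbx3 siRNA among the ESC libraries numbered 1 and 9 of 10 among those numbered 2, although the labels do not state that a number marks a shared culture. The share of all genes higher at each number was not computed. The factors also have similar profiles, so they do not count as separate evidence. Tbx3 had the largest ratios, at 4.64 and 1.66 RPKM after Cbx3 siRNA against 2.14 and 0.852 RPKM in control, which are ratios of 2.16 and 1.95. Because of the distance between replicates the 2 groups overlapped, and the difference of 0.68 (95% interval -0.16 to 1.53) did not pass (limma adjusted p = 0.9998). Klf4 was 25.4 and 7.67 RPKM against 20.7 and 6.45 RPKM, with ratios of 1.23 and 1.19. Prdm14 was 6.28 and 1.29 RPKM against 4.00 and 1.09 RPKM, with ratios of 1.57 and 1.19. Nr0b1 was 43.6 and 20.8 RPKM against 50.03 and 20.0 RPKM, with ratios on either side of 1 (0.872 and 1.04). For the other 6 factors the ratios lay between 0.998 and 1.19, with Zfp42 at 86.6 and 65.2 RPKM against 79.6 and 58.6 RPKM.

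The response to Cbx3 siRNA was not shown to differ between NPCs and ESCs. By limma, 0 of 10 factors and 0% of all genes passed for the difference of the responses, and 233 genes had an unadjusted p under 0.05. For Tbx3 the difference was -0.52 (95% interval -1.72 to 0.67), and for Nr0b1 it was -0.14 (95% interval -1.57 to 1.29).

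Across the 10 libraries the factors had similar profiles, which as a description reflects the shared ESC and NPC libraries. Pearson's r between log2 levels of 2 factors ran from 0.837, for Klf5 and Prdm14, to 0.999, for Esrrb and Klf4. Outside the set, the genes closest to the mean profile of the factors were Trps1 (r = 0.995), Cobl (0.995), Kat6b (0.994), Rnf125 (0.994) and Mybl2 (0.993). The closest gene to Nr0b1 was Fmr1 (0.995), to Zfp42 Smoc2 (0.994), to Prdm14 Myo1f (0.995), to Tbx3 Msc (0.989) and to Klf5 Fbxo11 (0.971), while Klf2 and Tfcp2l1 were closest to Esrrb and Nr5a2 to Klf4. These points share 2 cell stages and the depth of each library.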

How the data were processed

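Trizol RNA was made into TruSeq libraries, per the labels' protocols. The authors deposited RPKM values for each RefSeq transcript, and the submitters' processing notes name TopHat2 2.08 and mm9. The sources used here do not give the counter, the use of strand or how reads matching several places were treated. RefSeq names (GRCm38.p6) matched 99.07% of 35860 rows, and 334 rows kept their identifier. The row with the highest mean stood for a gene; Esrrb, Nr5a2 and Tbx3 have 2 rows each, which can share reads.

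limma 3.58.1 (R 4.3.3, intensity trend in the empirical Bayes step) was run on log2(RPKM + 1), with 2-sided tests and Benjamini-Hochberg adjustment at 0.05 over 11956 genes. NPC siRNA comparisons used the 6 NPC libraries and all others the 10 libraries, without a replicate block. With 2 samples a group, p reflects the spread between these samples and no more. The script was tested on simulated data. Depth was estimated from steps of low values, of which 64.8% to 70.4% lay within 0.1 reads of a whole number, too few to recover reads; counting error was not computed. The factors, lists and tests were chosen with earlier results of these data known. All 10 factors are named, and of each list up to 3 called genes with the largest change in each direction, beside Nanog, Pou5f1 and Sox2. Marker genes given to check the stages or libraries were chosen after their values were seen. Alternatives were another pseudocount, no filter, summed rows, quantile normalization, other sets of libraries, the block and leaving out each library.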

Additional observations from a re-analysis of the deposited data

How the results depend on the processing

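Counts of factors passing (of 10) are compared with those reported. Without the filter, 3 passed for NPC against ESC control, 0 for Med26 siRNA in NPCs and 3 for Cbx3 against Med26 siRNA, with 1533, 438 and 891 of 24520 genes called against 1918, 1597 and 2185 of 11956 with it. With the other set of libraries, these counts were 1 (4 control libraries), 0 and 0 (all 10 libraries), with 47, 15 and 120 genes called in all. Quantile normalization gave 1 for Cbx3 siRNA in NPCs. A pseudocount of 0.1 and summed rows moved no count by over 1.5 times. Leaving out 1 library gave 2 to 9 for NPC against ESC control, 0 to 5 for Med26 siRNA and 2 to 4 for Cbx3 against Med26 siRNA, with a lone sample assumed to vary like the other groups. The cause of these changes was not tested.

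With the replicate number within each cell stage as a block, 3 factors passed for Cbx3 siRNA in NPCs (Tfcp2l1, Zfp42 and Nr5a2; 3495 genes in all against 1570 without the block), 10 for NPC against ESC control (6912 genes in all), 7 for Med26 siRNA (3705), 6 for Cbx3 against Med26 siRNA (4234) and 1 for Cbx3 siRNA in ESCs (Tbx3, adjusted p = 0.0128; 813 genes in all). The block in the 4 ESC libraries, an alternative chosen after seeing the data, gave 0 (Tbx3 adjusted p = 0.0891). Deviations of samples with the same number correlated at 0.892 between the ESC groups and 0.423 to 0.461 between the NPC groups. The labels give only the numbers, so this is a hint from the data, and the block removes the ESC replicate difference from the error.

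Signs turned when 1 library was left out only among differences that had not passed. For Cbx3 siRNA in ESCs the log2 range was -0.77 to 1.12 for Esrrb, -0.48 to 0.62 for Klf2, -0.55 to 1.06 for Klf4, -0.10 to 0.38 for Klf5, -0.71 to 0.57 for Nr0b1, -0.56 to 0.62 for Nr5a2, -0.49 to 1.17 for Prdm14, -0.41 to 0.62 for Tfcp2l1 and -0.0813 to 0.36 for Zfp42. For Cbx3 siRNA in NPCs it was -0.12 to 0.32 for Klf2, -0.0948 to 0.0139 for Klf4, -0.16 to 0.57 for Klf5 and -0.11 to 0.0278 for Prdm14. For Cbx3 against Med26 siRNA it was -0.52 to 0.21 for Klf5 and -0.0443 to 0.18 for Tbx3. Prdm14 had the fewest estimated reads of the factors in the NPC libraries, 0 to about 42.5, and its counting error was not computed.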
